A study of Mus musculus with 25 samples.

Results

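The beta-defensin and Spag11 genes of the mouse were described in RNA from sperm of the cauda epididymis, the distal storage segment of the duct in which sperm mature. Members were all genes of the deposited table whose symbol was Defb followed by a number, or Spag11a, Spag11b or Spag11c, which gave 45 of 24358 genes. They were 43 Defb genes and the pair Spag11a and Spag11b, and each had a valid estimate in all 5 conditions.

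Each condition held sperm of 5 males aged 14 weeks. C57.CTL.F1 and FVB.CTL.F1 were C57BL/6J and FVB/N males whose mothers had received corn oil, the vehicle, by mouth while pregnant, on embryonic days 9 to 19. C57.D300.F1 and FVB.D300.F1 were males of the same strains whose mothers had received bis(2-ethylhexyl)phthalate (DEHP), a plasticizer with anti-androgenic effects, at 300 mg/kg/day on the same days. C57.D300.F2 were C57BL/6J sons of DEHP-exposed F1 males and unexposed females, and there was no vehicle-lineage F2 condition to set beside them. According to the labels, the 10 libraries of the C57BL/6J F1 conditions were re-analysed ones, and 15 carry no such mark, so that strain and generation cannot be told apart from the library set where these 2 conditions are compared with the remaining 3. Where 5 values of a gene are listed, they stand for C57BL/6J vehicle F1, DEHP F1 and DEHP F2, followed by FVB/N vehicle F1 and DEHP F1, and 3 values in C57BL/6J are given in the same order.

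Beta-defensins are small, cationic, secreted peptides in which 6 cysteines form 3 disulfide bonds. Many of them are made by the epithelium of the epididymis, in a segment-specific and often androgen-dependent manner, and are added to the surface of passing sperm, where they contribute to the glycocalyx, to motility and to defence against microbes. The Spag11 genes (sperm associated antigen 11) lie among the defensin genes of chromosome 8, and part of their products carries the same cysteine pattern. Mature sperm transcribe little, and fewer cells of a type and less RNA per cell cannot be told apart in these samples.

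All values are estimated fragment counts, 1 per gene and condition, which pool the 5 libraries and are scaled between libraries but not divided by gene length. Beside a count, the model SD is the square root of the variance that Cuffdiff's model attached to it. A ratio is the log2 ratio of 2 conditions after adding 1 to each count, and a member was called higher or lower when the ratio reached 2 log2 units in either direction (4-fold) and at least 1 of the compared conditions held 10 counts. Because no values per library were used, differences could not be set against the spread between libraries and carry no p-value. The limit of detection was set at 3 counts, so a fold against such a value is a lower bound.

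The total over all genes with a valid estimate ranged from 6921690 to 8602900 counts per condition. Transcripts that define sperm and late germ cells were present, since 14 or 15 of 15 listed genes reached 10 counts in every condition. Their sums over the 5 conditions were 95584, 80325, 32616, 8317 and 9875 counts, so both FVB/N conditions lay under all 3 of C57BL/6J. Seminal vesicle transcripts summed to 240702 counts in C57.CTL.F1 against 696 to 2139 in the other conditions, and liver transcripts to 159582 to 182687 in both re-analysed conditions against 637 to 4316 in the others. The part of these differences in the results below was not tested.

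The members fell into 5 clusters when neighbours up to 1 Mb apart were joined (mm10). The chromosome 1 cluster held 3 members over 55.1 kb, including the pseudogene Defb44-ps. Chromosome 2 carried 11 members over 164 kb and chromosome 14 carried 5 over 80.6 kb. Chromosome 8 held cluster A, with 16 members over 523 kb and both Spag11 genes among them, and cluster B, with 10 members over 1056 kb.

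The cysteine codons are the feature that the family shares although the sequences between them differ. Of 44 members with a complete GENCODE M21 coding sequence, 40 held 6 cysteine codons in the pattern searched, in which the fifth and sixth are adjacent, and Defb8, Defb33, Defb46 and Defb50 did not. The stretch from the first to the last of these codons is shown, 5′ to 3′ on the coding strand with cysteine codons in capitals, for 3 members that were higher with DEHP in FVB/N (Defb30, Defb20 and Spag11b), for 2 abundant members that were not (Defb28 and Defb43), and for 2 pairs of near copies, Defb15 with Defb34 and Defb12 with Defb35, of which Defb15 and Defb12 were higher and the others were not called.
Defb30: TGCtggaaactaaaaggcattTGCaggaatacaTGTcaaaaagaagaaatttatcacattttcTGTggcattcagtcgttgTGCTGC
Defb20: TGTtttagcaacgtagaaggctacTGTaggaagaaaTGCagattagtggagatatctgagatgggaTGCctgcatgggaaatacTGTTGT
Spag11b: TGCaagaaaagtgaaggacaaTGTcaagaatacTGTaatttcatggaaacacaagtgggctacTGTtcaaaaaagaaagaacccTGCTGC
Defb28: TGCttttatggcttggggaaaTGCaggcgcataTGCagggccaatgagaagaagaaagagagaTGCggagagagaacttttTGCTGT
Defb43: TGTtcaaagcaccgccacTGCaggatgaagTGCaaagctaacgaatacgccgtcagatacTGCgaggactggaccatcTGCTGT
Defb15: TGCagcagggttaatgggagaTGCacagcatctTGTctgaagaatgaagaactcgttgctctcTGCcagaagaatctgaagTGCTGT
Defb34: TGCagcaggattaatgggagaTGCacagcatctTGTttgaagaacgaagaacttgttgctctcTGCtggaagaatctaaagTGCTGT
Defb12: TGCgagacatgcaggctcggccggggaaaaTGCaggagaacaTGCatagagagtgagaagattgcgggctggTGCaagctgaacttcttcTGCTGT
Defb35: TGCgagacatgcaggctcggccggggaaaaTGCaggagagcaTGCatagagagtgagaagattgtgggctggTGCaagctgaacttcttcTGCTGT

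The genes lie at chr14:63034087-63049960 (Defb30, minus strand), chr2:152477063-152479934 (Defb20, plus), chr8:19140759-19143010 (Spag11b, plus), chr2:152518255-152521447 (Defb28, plus), chr14:63011771-63018088 (Defb43, plus), chr8:21929799-21932710 (Defb15, minus), chr8:19123752-19126540 (Defb34, plus), chr8:19111931-19114839 (Defb12, minus) and chr8:21938352-21940878 (Defb35, plus), and each stretch is exonic coding sequence of its gene. The gap between the third and the fourth cysteine codon was 9 codons in 39 of the 40 members, and that between the first and the second was 6 codons in 35. The gap between the fourth and the fifth was 5 codons in 12 of the 17 members called higher with DEHP in FVB/N and in 9 of the 23 other members with the pattern, and it was 6 codons in 3 and 14 members. Coding sequences were 50.3% identical in the median of 946 pairs when identical bases were divided by the longer length, and 3 pairs exceeded 80%, namely Defb15 with Defb34 at 91.4%, Defb3 with Defb5 at 85.4% and Defb10 with Defb11 at 84.4%. By that measure Defb12 and Defb35 were 66.7% identical, since their lengths differ, but their cysteine stretches shared 94 of 96 bases, and those of Defb15 and Defb34 shared 80 of 87. How the counting divided reads between near copies is not stated in the sources used here, so the counts of at least these 8 genes, among them the called members Defb12 and Defb15, are uncertain.

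Across the 5 conditions, 33 members reached 10 counts in at least 1 condition and 27 reached 100. Another 12 stayed under 10 counts throughout, 7 of them under 3, and Defb46 was listed at 0 in every condition. Defb28, a chromosome 2 member, exceeded every other member in every condition, with 17158, 19236 and 14345 counts in C57BL/6J and 29213 and 25757 in FVB/N. It made up 70.8%, 73.7%, 61.5%, 73.9% and 56.0% of the family's summed counts in the same order. Its model SD was wide, from 6759 in C57.D300.F2 to 19310 in FVB.CTL.F1, and no difference between its condition values exceeded the model SD of that difference in the 7 pairs compared. Per kb of exon, Defb28 also led, at 73583 counts in FVB.CTL.F1, followed by Defb43 at 10900 and Defb2 at 5251.

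**Figure D1:**
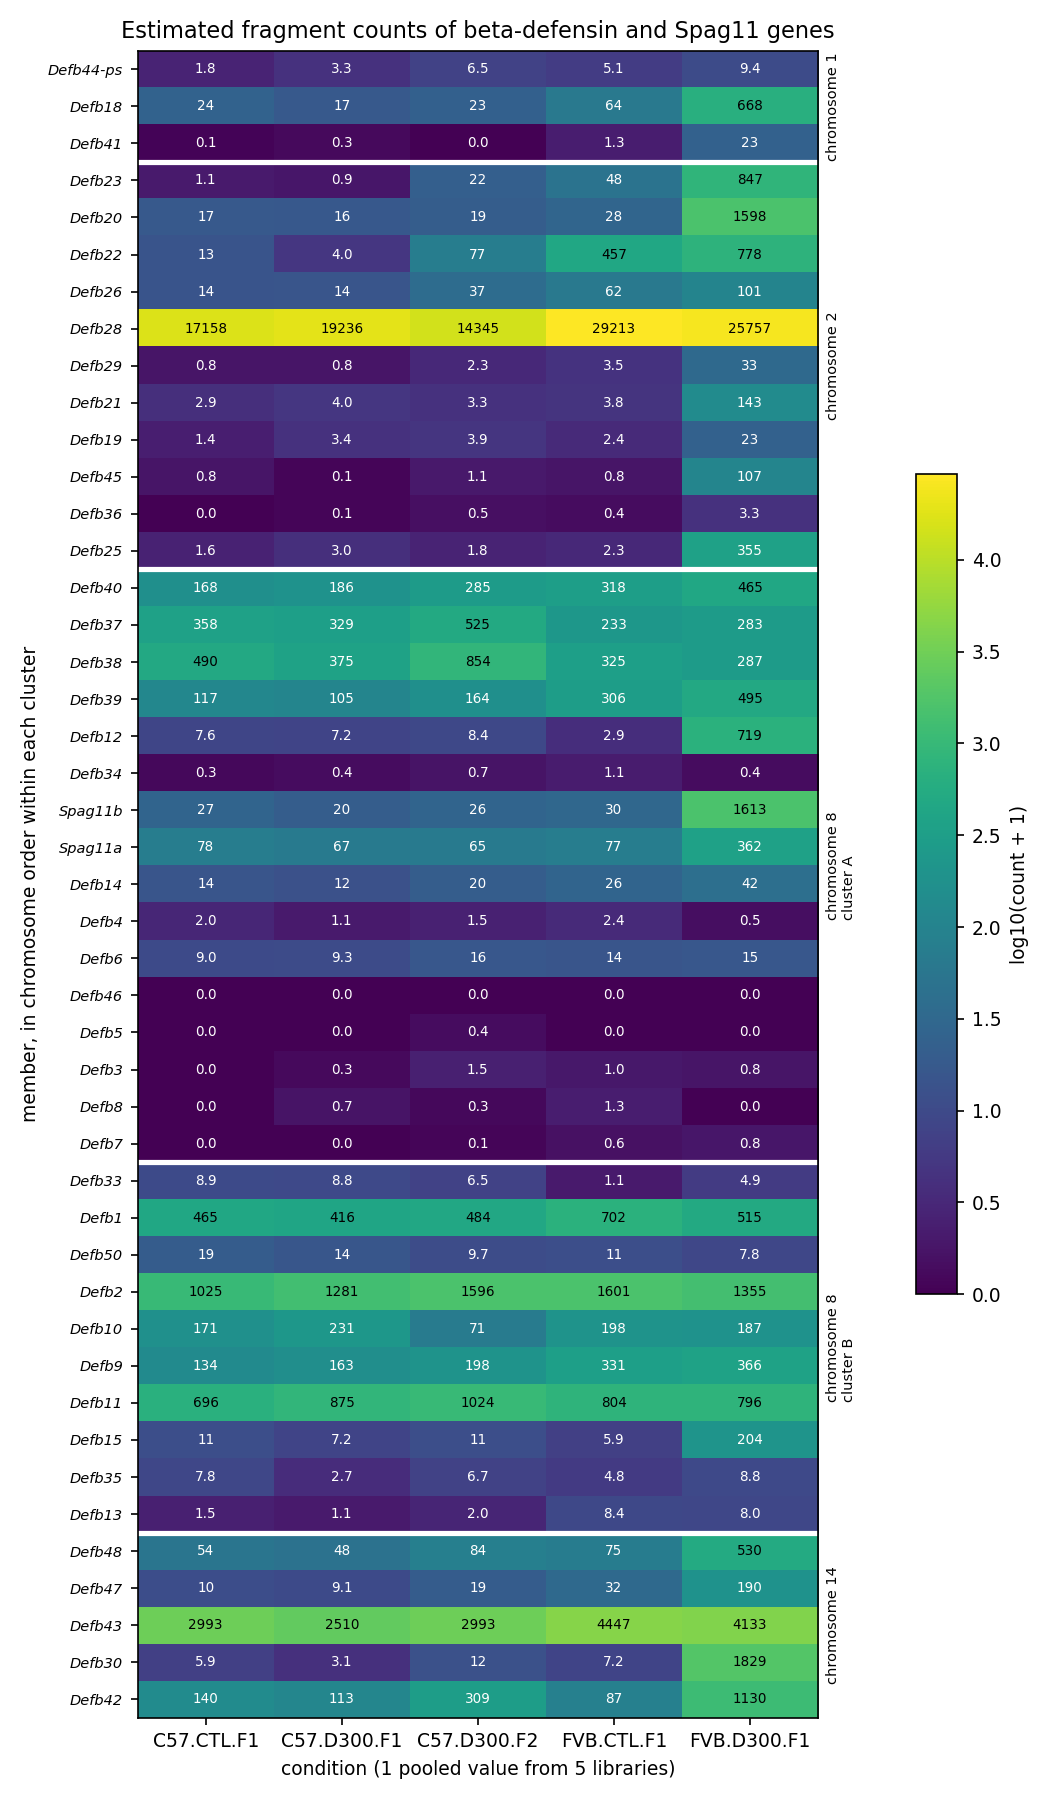
Estimated fragment counts of the 45 members (rows, in chromosome order within each cluster) in the 5 conditions (columns, 1 pooled value each); the colour is log10(count + 1) and the number in each cell is the count. Defb28 holds 14345 to 29213 counts in every condition, and 15 members that stand at 0.821 to 87.5 counts in FVB.CTL.F1 pass 100 counts in FVB.D300.F1.

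Prenatal DEHP in FVB/N was the comparison with the most members called within a strain. In FVB.D300.F1, 17 of 33 members with 10 counts were higher than in the vehicle condition and 0 were lower. Over all genes tested, 0.662% were higher and 0.0182% were lower, which is 109 and 3 of 16471 genes. The median ratio of all 45 members was 0.69 log2 units, against 0.00039 over all genes with a value. The members called were Defb12, Defb15, Defb18, Defb19, Defb20, Defb21, Defb23, Defb25, Defb29, Defb30, Defb41, Defb42, Defb45, Defb47, Defb48, Spag11a and Spag11b, and no member with 10 counts lay between 0.77 and 2.21 log2 units. Just past the threshold were Spag11a at 2.21 and Defb47 at 2.54 log2 units, and just short of it were Defb22 at 0.77 and Defb39 at 0.69.

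**Figure D2:**
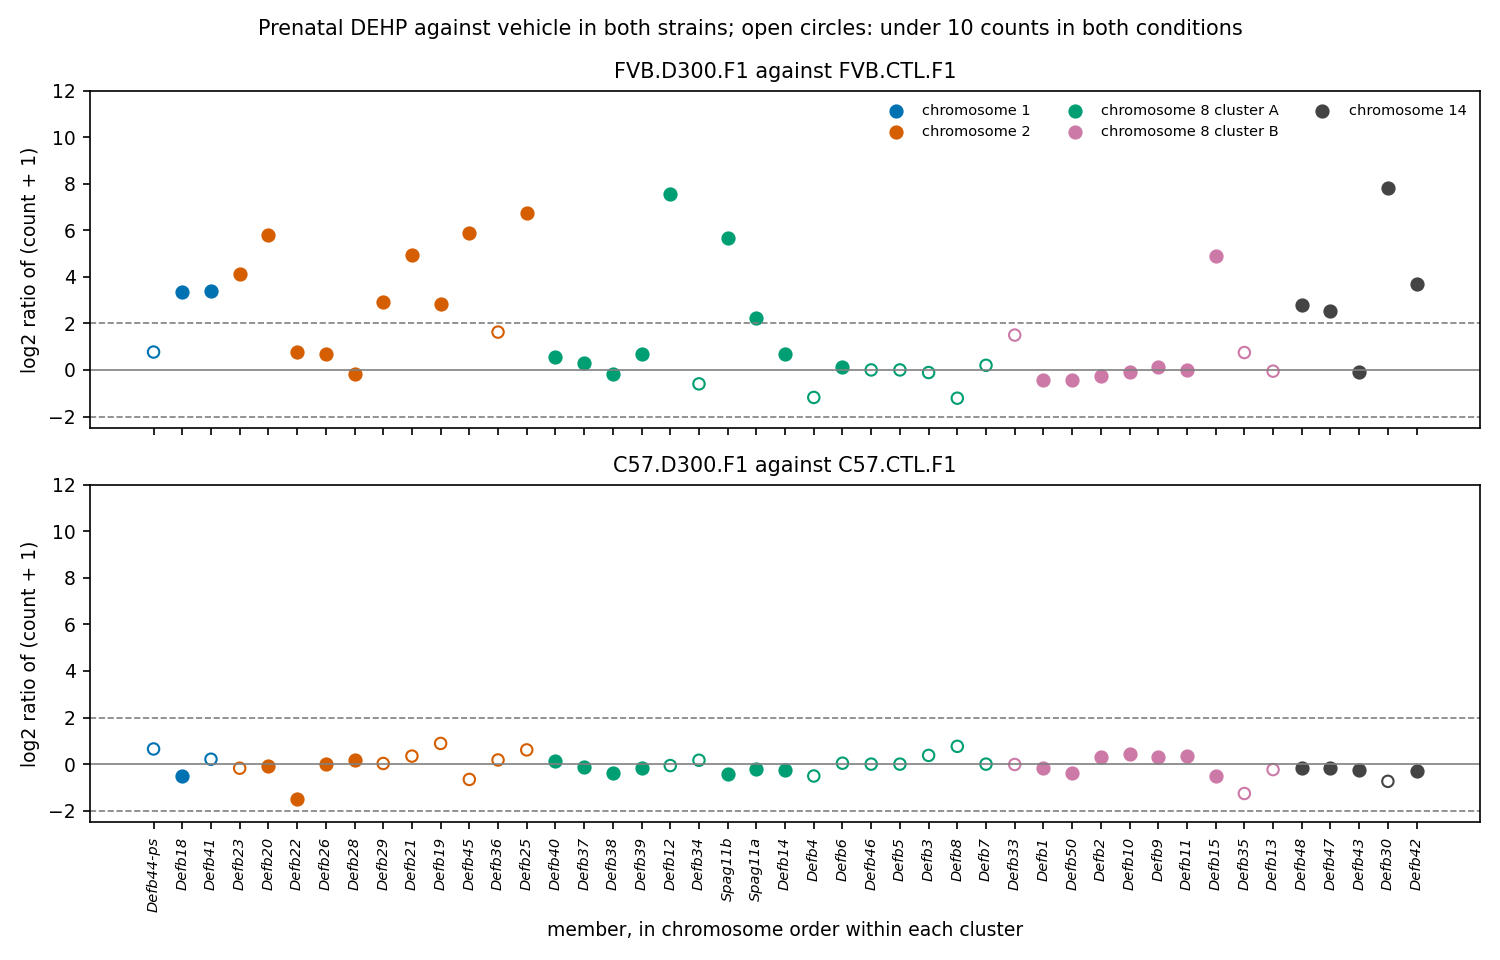
Log2 ratio of (count + 1) between DEHP and vehicle for each of the 45 members, in FVB/N (upper panel) and C57BL/6J (lower panel), coloured by cluster, with open circles for members under 10 counts in both conditions and dashed lines at 2 log2 units either way. In FVB/N 17 members lie above the upper line, up to Defb30 at 7.81, while in C57BL/6J all 45 lie between -1.51 and 0.89.

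On chromosome 14, 4 of 5 members were higher. Defb30 rose most of all members, from 7.18 counts with vehicle to 1829 with DEHP (255-fold), with a model SD of 1580 in the latter. It held 5.88, 3.12 and 11.7 counts in C57BL/6J. Defb42, an epididymal defensin gene that overlaps Defb30 by 2970 bases on the opposite strand, with no exonic base in common, went from 87.5 to 1130 counts, a difference smaller than its model SD. It was the only one of the 17 with over 100 counts in any C57BL/6J condition, at 140, 113 and 309. Defb48 rose from 74.7 to 530 counts and Defb47 from 31.9 to 190. Their values in C57BL/6J were 54.2, 48.1 and 84.3 for Defb48 and 10.1, 9.06 and 18.9 for Defb47. Defb43, which lies between Defb47 and Defb30, was the abundant member here and was not called, with 2993, 2510 and 2993 counts in C57BL/6J and 4447 and 4133 in FVB/N.

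Chromosome 2 held 7 of the 17, among them members at or under the limit of detection in FVB.CTL.F1. Defb20 rose from 27.9 to 1598 counts (57.4-fold) and stood at 16.6, 15.7 and 19.4 in C57BL/6J. Defb23 rose from 48.3 to 847 counts, and its C57BL/6J values were 1.10, 0.863 and 21.8. Defb25 went from 2.30 to 355 counts, at least 118-fold higher, and Defb45 from 0.821 to 107, at least 35.7-fold higher. In C57BL/6J, Defb25 held 1.64, 3.04 and 1.80 counts and Defb45 0.797, 0.140 and 1.05. Defb21 rose from 3.77 to 143 counts, with 2.94, 4.00 and 3.26 in C57BL/6J. Defb29, at 3.45 counts with vehicle and 33.1 with DEHP, and Defb19, at 2.40 and 23.3, were the 2 least abundant of the called members here and stayed under 4 counts in C57BL/6J.

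The chromosome 2 members not called, apart from Defb36, sat side by side between Defb20 and Defb29. Defb22, the mouse counterpart of the sperm-coating defensin DEFB126 of primates, held 13.2, 3.99 and 77.1 counts in C57BL/6J and 457 and 778 in FVB/N. Its neighbour Defb26 held 13.7, 13.9, 37.0, 62.3 and 101 counts. Both were higher with DEHP in FVB/N by more than the model SD, at 1.70-fold and 1.62-fold, but short of the threshold. Defb28 completed this run, and Defb36, next to Defb25, reached only 3.29 counts.

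Cluster A of chromosome 8 had 3 called members next to one another but for Defb34, namely Defb12, Spag11b and Spag11a. Defb12 went from 2.88 to 719 counts, at least 240-fold higher, and held 7.57, 7.21 and 8.38 counts in C57BL/6J, while its near copy Defb35 in cluster B held 4.85 and 8.82 counts with vehicle and DEHP in FVB/N. Spag11b rose from 30.4 to 1613 counts (53.1-fold), with a model SD of 1631 that exceeded the difference. Spag11a started higher and rose less, from 77.2 to 362 counts (4.69-fold). In C57BL/6J, Spag11b held 26.6, 19.5 and 26.0 counts and Spag11a 77.5, 66.7 and 64.9.

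The members of cluster A on either side of these were not called. Defb37, Defb38, Defb39 and Defb40, neighbouring genes known from the epididymis, held at least 105 counts in every condition. Over the 5 conditions Defb37 held 358, 329, 525, 233 and 283 counts and Defb38 490, 375, 854, 325 and 287. Defb39 held 117, 105, 164, 306 and 495 counts and Defb40 168, 186, 285, 318 and 465, and the last step exceeded the model SD in both. On the other side of the Spag11 genes, Defb14, the counterpart of human beta-defensin 3, peaked at 42.2 counts and Defb6 at 15.5. There Defb4, Defb46, Defb5, Defb3, Defb8 and Defb7 stayed under 3 counts in every condition, among them the inducible members Defb3 and Defb4.

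Cluster B of chromosome 8 held the same abundant members in both strains. Its only called member was Defb15, which rose from 5.88 to 204 counts (34.7-fold), with 10.8, 7.17 and 10.8 in C57BL/6J. Its near copy Defb34 in cluster A held 1.15 counts with vehicle and 0.416 with DEHP. Defb2 led this cluster with 1025, 1281, 1596, 1601 and 1355 counts over the 5 conditions. Defb11 held 696, 875, 1024, 804 and 796 counts, and Defb1, the constitutive epithelial defensin, 465, 416, 484, 702 and 515. Defb9 held 134, 163, 198, 331 and 366 counts and Defb10 171, 231, 70.9, 198 and 187. Defb50 held 19.3, 14.5, 9.71, 11.0 and 7.76 counts, and Defb33, Defb35 and Defb13 stayed under 10 throughout. Of Defb1, Defb2, Defb9, Defb10 and Defb11, none differed with DEHP in FVB/N by more than the model SD.

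On chromosome 1, Defb18 rose from 64.2 to 668 counts (10.4-fold) and held 24.2, 16.6 and 22.7 in C57BL/6J. Defb41, known from the proximal epididymis, reached 23.1 counts in FVB.D300.F1 with a larger model SD, 39.6, and stayed at or under 1.31 counts elsewhere. Defb44-ps never exceeded 9.43 counts. Among members with 10 counts, 2 of 2 were thus called on chromosome 1 and 7 of 10 on chromosome 2. On chromosome 14 it was 4 of 5, in cluster A 3 of 9 and in cluster B 1 of 7. Over all genes tested the share was 0.662%. Of the called members, 9 passed the minimum count only through FVB.D300.F1, where they were high. These were Defb41 on chromosome 1, Defb19, Defb21, Defb25, Defb29 and Defb45 on chromosome 2, and Defb30 on chromosome 14. Defb12 in cluster A and Defb15 in cluster B were the others. The shares are therefore a description and do not rank the clusters. The medians over all members of each cluster, in the same order, were 3.36, 2.94, 2.81, 0.16 and -0.03 log2 units.

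**Figure D3:**
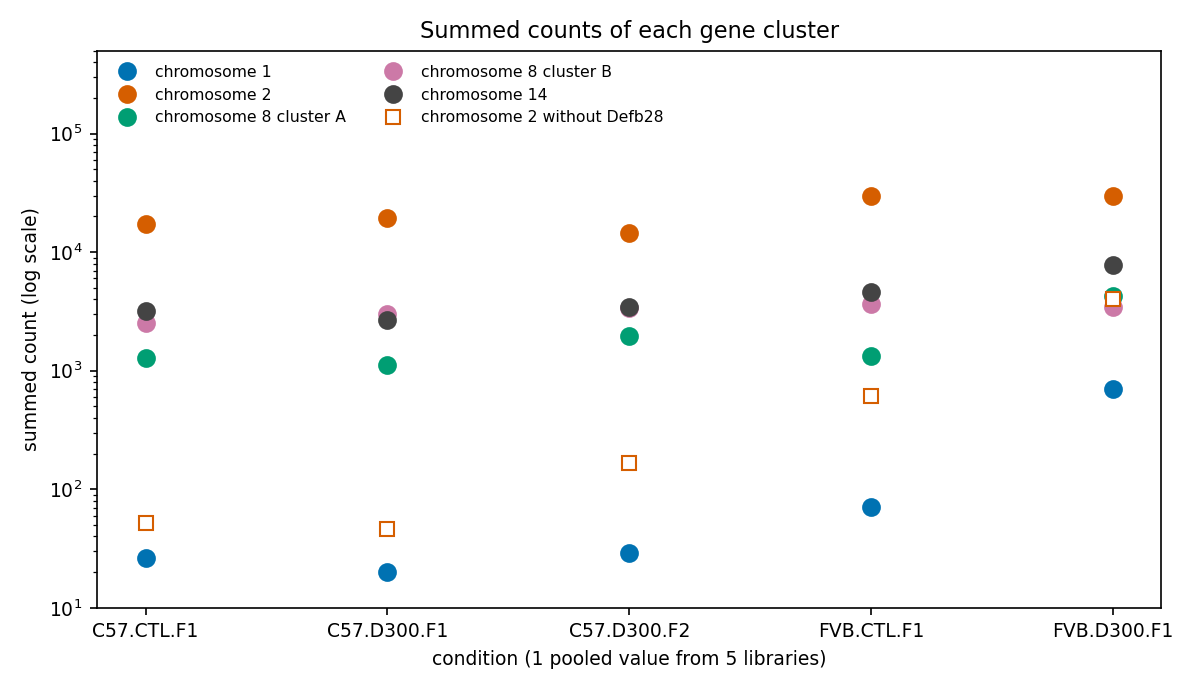
Summed counts of each gene cluster (log scale) in the 5 conditions, with open squares for chromosome 2 without Defb28. Chromosome 2 without Defb28 stands at 46.0 to 168 counts in the C57BL/6J conditions, and at 608 with vehicle and 3989 with DEHP in FVB/N, whereas cluster B of chromosome 8 stays between 2539 and 3667.

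The called members started from low levels in vehicle sperm, which are also the denominators of their ratios, so the following counts are a description. None of the 12 members with at least 100 counts in FVB.CTL.F1 was called (median ratio -0.05 log2 units), while 8 of the 12 with 10 to under 100 counts were (median 2.67), and Defb6, Defb14, Defb26 and Defb50 of that range were not. Among the 21 with fewer than 10 counts, 9 reached 10 counts in FVB.D300.F1, and all 9 were called. They passed the minimum count only through that condition, where they were high, so their calls are no separate support. In all genes tested, the shares called in the same bins were 0.119%, 0.542% and 10.5%. The 17 called members summed to 472 counts with vehicle and 10375 with DEHP, or 1.19% and 22.6% of the family. The remaining members without Defb28 summed to 9861 and 9862.

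**Figure D4:**
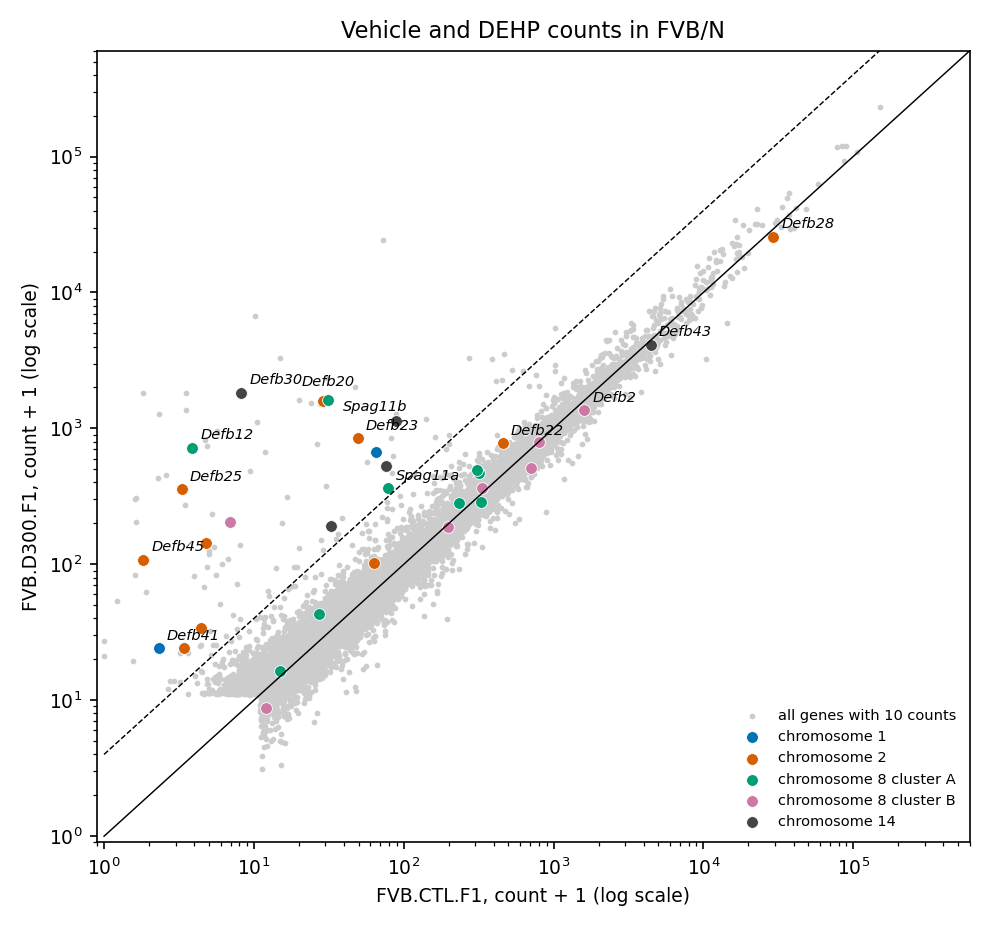
Counts plus 1 in FVB.CTL.F1 (x axis) and FVB.D300.F1 (y axis) for all genes with 10 counts in 1 of them (grey) and for the 33 members that passed (coloured by cluster), on log scales; the solid line marks equal values and the dashed line 4-fold. The 17 called members all start under 100 counts, and the 12 members above 100 counts in FVB.CTL.F1 have ratios from -0.45 to 0.77 log2 units.

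The values of the called members were also less certain in FVB.D300.F1. The model SD divided by the count had a median of 0.605 over the 14 called members with at least 100 counts there, ranging from 0.441 to 1.01, against 0.245 over 13 other members, ranging from 0.235 to 0.670, and 0.248 over all genes of that level. For 14 of the 17 the difference exceeded the model SD of the difference, and the exceptions were Defb41, Defb42 and Spag11b. The same held for 92 of the 109 genes called higher over all genes, so it does not set the called members apart. Of the 33 members with 10 counts, called or not, 18 differed by more than the model SD in this comparison, against 5.65% of all genes tested. The pooled values do not show how many of the 5 libraries carried these RNAs.

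Other secreted products of the epididymis moved in the same comparison. Of 22 listed epididymal secretory genes outside the family, 21 had a value in both conditions (the estimate of Crisp1 had failed in FVB.CTL.F1). Of these, 14 were higher in FVB.D300.F1, 0 were lower, and the median ratio was 5.69 log2 units, where 0.662% of all genes tested were higher. Only 11 of the 21 held 10 counts in FVB.CTL.F1. The rest passed the minimum count through FVB.D300.F1 alone, so this count and median are a description. Gpx5, a secreted glutathione peroxidase of the epididymis, rose from 71.4 to 24121 counts, and Lcn5, an epididymal lipocalin, from 9.18 to 6686. Adam7 and Cuzd1, at 37310 and 86520 counts in FVB.CTL.F1, were not called, with ratios of 0.53 and 0.11. Of 6 markers of epididymal clear and basal cells, 0 were called and all 6 held at least 75.2 counts in both FVB/N conditions, and their sums were 928 with vehicle and 963 with DEHP. None of the 15 germ cell and sperm genes was called (median 0.35), nor any of 6 smooth muscle genes (median -0.65), 9 seminal vesicle genes (median -0.46) or 8 liver genes (median -0.64). Of 6 blood and leukocyte genes, Hbb-bs was called, from 453 to 2276 counts. The list summed to 35344 and 35051, but Cd52 alone held 32765 and 30497 of these, so the sums mostly follow Cd52. Lyz2 stood at 654 and 956 counts, Cd74 at 1355 and 1190 and Ptprc at 116 and 132, while Hba-a1 was under 3 counts in both. The part of these lists in the family's values was not tested.

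**Figure D5:**
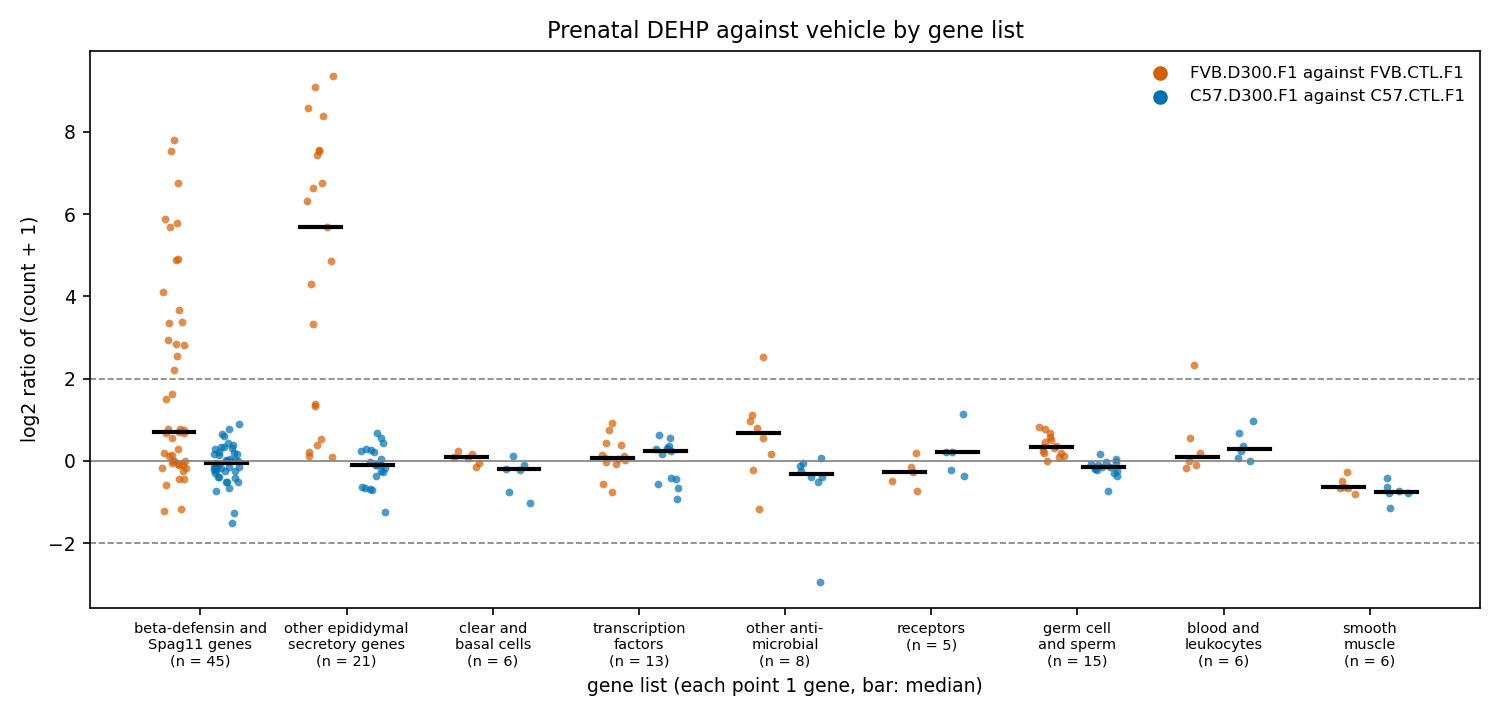
Log2 ratio of (count + 1) between DEHP and vehicle in FVB/N (orange) and C57BL/6J (blue) for the family and 8 gene lists; each point is 1 gene, the black bar is the median and dashed lines mark 2 log2 units either way. In FVB/N, 17 of 45 family members and 14 of 21 other epididymal secretory genes lie above the upper line, with medians of 0.69 and 5.69.

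Genes flanking the clusters were not called with DEHP in FVB/N. Wdfy2 and Ctsb, which border the chromosome 14 cluster at 16.0 and 64.3 kb, had ratios of -0.09 and 0.13 log2 units, and Rem1, 3.90 kb beyond Defb25 on chromosome 2, had 0.05. Crisp4, a sperm-binding secretory gene 64.2 kb from the chromosome 1 cluster, stood at 173 and 435 counts (1.32 log2 units). Within cluster B lay AY761185, which held 89.3, 125, 115, 768 and 2456 counts over the 5 conditions, with a ratio of 1.68 for DEHP in FVB/N.

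In C57BL/6J, DEHP was followed by no called member in F1. Of 23 members with 10 counts, 0 were higher and 0 lower, against 0.0357% and 0.256% of all genes tested, and the median over all 45 was -0.06 log2 units. Only Defb22 differed by more than the model SD, at 13.2 and 3.99 counts (-1.51 log2 units), where 6.57% of all genes did. The ranks of the 45 members were alike in both conditions, with a Spearman coefficient of 0.983 over genes that share the same libraries. Other secretory genes of the epididymis had a median of -0.11 with 0 of 12 called, while all 9 seminal vesicle genes were lower.

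Set against each other, the DEHP ratios of the strains differed by 2 log2 units or more in 17 of 33 members with 10 counts. All were higher in FVB/N, against 0.997% of all genes higher and 0.228% lower. They were 16 of the 17 members called in FVB/N, without Defb19, and in addition Defb22, whose difference was 2.28 (0.77 in FVB/N and -1.51 in C57BL/6J). Those 16 had been called from the same FVB.D300.F1 values, so this is no separate support. Defb12, Defb21, Defb25, Defb29, Defb30, Defb41 and Defb45 passed the minimum count only through that condition. Defb30 stood first at 8.54 log2 units, followed by Defb12 at 7.60 and Defb45 at 6.55. This difference was not tested against the spread between libraries, and strain is joined to the library set here.

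The F2 condition differed from both C57BL/6J F1 conditions in the same 2 members. Against vehicle F1, Defb22 was higher in C57.D300.F2, at 77.1 and 13.2 counts, as was Defb23, at 21.8 and 1.10, and 0 members were lower, where 0.584% of all genes were higher and 3.61% lower. Against DEHP F1 both were also higher, by 3.97 and 3.62 log2 units, where 0.333% and 3.3% of all genes were higher and lower. These calls depended on low counts, since no member was higher against vehicle F1 with a pseudocount of 10 or a minimum of 100 counts, and 1 and 0 were against DEHP F1. Against C57.CTL.F1, 13 of 26 members differed by more than the model SD, as did 26.9% of all genes tested. Defb42 stood at 309 against 140 counts and Defb38 at 854 against 490, and Defb10 went the other way, at 70.9 against 171. The median of all 45 was 0.45 against vehicle F1 and 0.42 against DEHP F1.

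Between the strains without DEHP, 3 members of the chromosome 2 cluster were higher in FVB/N. Defb22 stood at 457 counts against 13.2 in C57BL/6J (34.5-fold), Defb23 at 48.3 against 1.10 (at least 16.1-fold) and Defb26 at 62.3 against 13.7 (4.53-fold). No member was lower, while 1.44% of all genes were higher and 8.88% lower. Over the 11 members with 100 counts in both control conditions the median was 0.59 log2 units, from Defb37 at -0.62 to Defb39 at 1.38. In the same comparison 14 of 15 germ cell and sperm genes were lower in FVB/N, with a median of -2.55.

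Only C57.D300.F2 offered C57BL/6J libraries of the same set as the FVB/N ones, and it differs in exposure and generation. Against it, Defb22 alone was higher in FVB.CTL.F1, at 457 against 77.1 counts (5.92-fold), and 0 members were lower, where 0.707% of all genes were higher and 2.5% lower. Defb23 and Defb26 were 2.21-fold and 1.68-fold higher, each by more than the model SD. Defb42, Defb38 and Defb37 had ratios of -1.81, -1.39 and -1.17 log2 units, short of the threshold. Under DEHP, 20 of 33 members with 10 counts were higher in FVB/N than in C57BL/6J F1 males and 0 lower, against 2.65% and 7.67% of all genes. The 20 were the 17 members called with DEHP in FVB/N together with Defb22, Defb26 and Defb39. Those 17 had been called from the same FVB.D300.F1 values. In C57.D300.F1 only 20 members held 10 counts, so the other members tested passed the minimum count through FVB.D300.F1 alone.

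The promoters of the members were searched for short motifs of factors known to act in the epididymis. RefSeq (GRCm38.p6) gave the 250 bases before a start for 29 members, and for 20 of 30 starts the next 25 bases lay in a GENCODE transcript of the gene. The windows are those of the C57BL/6J reference, and FVB/N sequence was not used here. The hexamer AGAACA, the core of steroid hormone response elements, was found on either strand in 14 of 29 members (48.3%), against 14.2% of 17196 genes of the table, and the windows of the members were richer in A and T (median 52.8% against 44.4%). It was found in 6 of 11 called members and in 8 of 18 others, and among the 20 members with a matched start in 6 of 9 and 6 of 11. Some holders shared the bases around the hexamer (Defb3, Defb8 and Defb46, and also Defb10 and Defb11), so the 14 are not independent of each other. TGTTTGC, a forkhead motif, occurred in Defb15 and Defb30 alone (6.90% against 3.89%), and the related TGTTTAC in 0 of 29 (2.68% of genes). TATAAA, the letters of the TATA box, was found in 4 of 11 called members, namely Defb15, Defb23, Defb30 and Defb48, and in Defb7 among 18 others, against 11.9% of genes. It lay close to the start only in Defb15 and Defb48, at 35 and 30 bases before it. In Defb23 it lay 221 bases before the start, and in Defb30 and Defb7 222 and 113 bases before it on the opposite strand.

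Shown are the windows of Defb15 and Defb30, the 2 members that held all 3 of these motifs, and of Defb43, the abundant neighbour of Defb30 that was not called. Each is written 5′ to 3′ on the strand of its gene and ends 1 base before the RefSeq start, with the motifs in capitals (as their reverse complement where they lie on the opposite strand). The window of Defb15 was chr8:21932711-21932960 (minus strand), that of Defb30 chr14:63037847-63038096 (minus strand) and that of Defb43 chr14:63011521-63011770 (plus strand).
Defb15: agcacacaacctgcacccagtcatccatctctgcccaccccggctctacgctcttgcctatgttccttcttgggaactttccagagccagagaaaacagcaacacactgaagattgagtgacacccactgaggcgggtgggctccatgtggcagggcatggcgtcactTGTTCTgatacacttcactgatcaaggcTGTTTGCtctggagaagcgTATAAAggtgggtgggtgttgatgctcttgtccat
Defb30: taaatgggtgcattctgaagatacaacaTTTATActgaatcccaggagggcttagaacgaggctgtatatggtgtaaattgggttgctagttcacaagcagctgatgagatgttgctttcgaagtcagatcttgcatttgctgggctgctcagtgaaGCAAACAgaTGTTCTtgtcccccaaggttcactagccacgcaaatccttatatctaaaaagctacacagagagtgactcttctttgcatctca
Defb43: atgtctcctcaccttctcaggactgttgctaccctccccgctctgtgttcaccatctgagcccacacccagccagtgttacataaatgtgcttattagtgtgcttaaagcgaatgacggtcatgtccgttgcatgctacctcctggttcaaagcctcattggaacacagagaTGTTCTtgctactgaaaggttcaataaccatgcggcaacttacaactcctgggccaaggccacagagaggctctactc

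In Defb15, the TATA box began 35 bases before the start, the forkhead motif 54 bases and the AGAACA hexamer 82 bases before it. In Defb30, the forkhead motif and the hexamer lay 2 bases apart, beginning 93 and 84 bases before the start, and the TATA letters stood far upstream at 222 bases on the opposite strand. The RefSeq start of Defb30 lies inside the GENCODE gene, which extends further upstream. Defb43 held the hexamer 78 bases before its start and neither of the other motifs. A match describes letters in a window and not a bound site. Of the called members with a window, Defb20, Defb21, Defb29, Defb42 and Defb45 held none of the 4 motifs.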

How the data were processed

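Sperm RNA of 25 male mice, 5 per condition, was ribosome-depleted, fragmented and made into small-RNA-type libraries that capture all RNA kinds. Per the labels and the methods of the study, the authors called bases with CASAVA 1.8.2, clipped the adapter, mapped reads to mm10 with TopHat and ran Cuffdiff. What they deposited is a signal: for each gene, a fragment count estimated for every condition, with the model variance beside it. Cuffdiff's options, its use of strand and the annotation release are not given in the sources used here. FVB/N reads were mapped to a C57BL/6J genome. Estimates marked as failed were treated as missing, and no member was affected.

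Ratios were taken as log2 of (count + 1). Calls needed 2 log2 units and 10 counts in at least 1 compared condition. Intervals are not given, because the pooled values carry no spread between libraries, and the limit of 3 counts covers counting error only. Every member with at least 100 counts in any condition is given with its 5 values. Of genes outside the family, those named are flanking genes and genes of the lists. Examples among these that were not called with DEHP in FVB/N were chosen after their values were seen. They include Wdfy2, Ctsb, Rem1, Crisp4, Adam7, Cuzd1, AY761185, Foxa1, Foxa2 and the blood and leukocyte genes other than Hbb-bs. The members and lists were chosen with earlier results of these data known. Positions, exon lengths and coding sequences came from GENCODE M21 and promoters from RefSeq (GRCm38.p6). Python 3.11.15, pandas 2.3.3 and Biopython 1.88 were used. The calling step was checked on simulated counts, with changes placed only in genes of at least 100 counts in FVB.CTL.F1. The members called with DEHP in FVB/N started under that level, so the check does not cover them. Alternatives changed the scaling, the pseudocount, the minimum count, the threshold and the use of the model SD.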

Additional observations from a re-analysis of the deposited data

How the results depend on the processing

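Of 200 results recomputed under the alternatives, 182 stayed within 1.5 times the main count or 0.5 log2 units of the main median. With DEHP in FVB/N the number of members higher was 14 to 17 under every alternative, and a pseudocount of 10 and a minimum of 100 counts each lost Defb19, Defb29 and Defb41. With a minimum of 100 counts the median of the members that passed was 2.21 for DEHP in FVB/N, 3.31 between the strains under DEHP and 2.43 for the difference between the strains' DEHP ratios, since fewer genes were kept, and with a pseudocount of 10 the median between the strains under DEHP was 1.12. For F2 against C57.CTL.F1 the number higher fell from 2 to 0 with a pseudocount of 10 and to 0 with a minimum of 100 counts, and against C57.D300.F1 to 1 and 0. Defb22 and Defb23 were under 100 counts in all C57BL/6J conditions. Between the control strains 1 member, Defb22, stayed higher with a minimum of 100 counts, and 1 member, Defb33, was lower with no minimum. A threshold of 1 log2 unit gave 1 member lower for DEHP in C57BL/6J, 4 higher and 1 lower for F2 against C57.CTL.F1, 6 higher and 1 lower for F2 against C57.D300.F1, 7 higher between the control strains, and 5 higher and 3 lower for FVB.CTL.F1 against C57.D300.F2. Scaling to equal totals moved the median of all genes by up to 0.25 log2 units, for F2 against C57.CTL.F1, and changed no count of members by more than 1.5 times. No paired analysis was possible because only 1 pooled value per condition was used, and leaving out replicates could not be run for the same reason.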

Other observations

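Further gene groups around beta-defensin function were described by their counts. Ltf (lactotransferrin, an iron-binding antimicrobial protein) was the most abundant of 8 other antimicrobial genes, with 27738, 19552, 26899, 48225 and 41176 counts over the 5 conditions. In the DEHP comparison of FVB/N, S100a9, a leukocyte calcium-binding protein, was the only gene of this list called, at 3.36 and 24.1 counts, and it was lower with DEHP in C57BL/6J, at 49.6 and 5.53. The 18 genes of the alpha-defensin family, made in intestinal Paneth cells, held at most 0.659 counts in any condition.

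Receptors reported for beta-defensins were weakly represented. Ccr6, the chemokine receptor bound by several beta-defensins, held 5.03 to 10.7 counts and Tlr4 63.1 to 150. None of the 5 receptor genes was called with DEHP in either strain, and Ccr2 was lower in FVB.D300.F1 than in C57.D300.F1, at 37.3 and 278 counts. Of 13 transcription factors of the epididymal epithelium, 0 were called with DEHP in either strain. Foxa1, a forkhead factor, held 239 and 451 counts with vehicle and DEHP in FVB/N. Pax8 was higher in FVB.D300.F1 than in C57.D300.F1, at 2230 and 533 counts, and Foxa3 lower, at 1.60 and 59.7.

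Of the 17 members called with DEHP in FVB/N, 11 were among the 21 on the minus strand and 6 among the 24 on the plus strand. These totals include members under 10 counts in both FVB/N conditions, which could not be called. The share over all genes by strand was not taken, so no difference between strands is read from them.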
